A study of Bos grunniens with 18 samples.

Results

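The glucocorticoid receptor and its response genes were followed in yak (*Bos grunniens*) blood across 3 reproductive stages. The genes looked for were 9: the receptors *NR3C1* and *NR3C2*, the enzyme gene *HSD11B1*, and the response genes *FKBP5*, *KLF9*, *DUSP1*, *SGK1*, *ZBTB16* and *TSC22D3*. They were found by gene symbol, and 8 of the 9 had a row among the 20607 genes of the deposited table. *TSC22D3* was not analysed here. Of the 8, 6 passed the filter on low counts and were tested together with 14508 genes in all, and each of the 6 held at least 60 counts in every library. *NR3C2* and *HSD11B1* did not pass the filter.

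The whole-blood transcriptome was measured by RNA sequencing at anestrus, named Y-A, at estrus, named Y-E, and during pregnancy, named Y-P, with 6 libraries at each stage and 18 in all. The blood came from 6 adult female yaks aged 4 to 8 years, in the second year of calving, and was collected from the same cows as they passed through the stages. The herd's estrus was synchronised with a progesterone pessary, PGF2α in the form of cloprostenol, and GnRH, and the cows were then inseminated. The day of pregnancy and the interval between the treatment and each blood collection were not given in the sources used here, and steroid concentrations of these animals were not used here. No untreated group was part of the comparison, so the synchronisation treatment and the stage cannot be told apart.

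Glucocorticoids such as cortisol cross the cell membrane and bind the receptor encoded by *NR3C1*, which is held ready in the cytoplasm by heat-shock chaperones. The bound receptor moves to the nucleus, switches on genes such as *FKBP5* and *KLF9* through its response elements, and restrains inflammatory genes such as *IL1B*. In blood the hormone changes both the activity of leukocytes and how many of each kind circulate, and it rises with stress and around reproductive events.

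The libraries held 30247267 to 41016667 counts in Y-A, 31704498 to 46404156 in Y-E and 30343748 to 48401076 in Y-P, so that 3 counts, the limit that a count of 0 allows, stood for 0.0620 to 0.0992 CPM (counts scaled to the same library total). This limit covers counting error only. Levels below are CPM after TMM normalization, and differences are log2 fold changes with an adjusted p from edgeR's quasi-likelihood test over all genes tested. The genes and gene lists below were chosen with earlier results of these data known. Their counts and medians beside those of all genes are therefore descriptions, not tests. Y-E replicate 6 stood apart: 6 hemoglobin genes took 8.36% of its counts against 0.0899% to 0.713% in the other Y-E libraries, while the range was 3.1% to 16.7% in Y-A and 0.0272% to 0.376% in Y-P. Summed CPM of the 7 neutrophil markers in the table (such as *CSF3R*, *S100A8* and *MMP9*) ran from 3692 to 9331 in Y-A, from 4750 to 12572 in Y-E and from 2699 to 5985 in Y-P. The 5 T cell markers summed to 827 to 1035 CPM in Y-A, 846 to 1053 in Y-E and 964 to 1684 in Y-P, and no summed marker list was at 0 in any library. In blood of mixed cells, fewer cells of a type and less RNA per cell cannot be told apart, and the part of cell composition in the results below was not tested.

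*NR3C1* encodes the glucocorticoid receptor itself (ENSBGRG00000012083, chromosome 8, 59186249 to 59324514, minus strand; positions here are as deposited, on a genome named only as v101). Its level was even in the non-pregnant stages, from 101.45 to 136 CPM with a median of 123 in Y-A and from 108 to 132 with a median of 121 in Y-E. In Y-P it spread from 51.5 in replicate 2 to 145 in replicate 1, with a median of 94.3. The lowest 3 Y-P libraries, replicates 2, 3 and 5, lay below every Y-A and Y-E library, while replicate 1 lay above all of them, so the ranges of the stages overlapped. The mean was 121 ± 12.7 CPM at anestrus, 121 ± 10.1 at estrus and 94.3 ± 33.3 in pregnancy (SD, n = 6 each). *NR3C1* did not pass the test in any comparison. The log2 fold change was 0.00 in Y-E vs. Y-A (95% interval −0.36 to 0.37), −0.36 in Y-P vs. Y-A (−0.72 to 0.01, adjusted p = 0.233) and −0.36 in Y-P vs. Y-E (−0.73 to 0.01, adjusted p = 0.179). Y-P replicate 1 decided the last of these: without it the value was −0.52 with an adjusted p of 0.0316.

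The second corticosteroid receptor and the activating enzyme were close to the limit of detection. *NR3C2* encodes the mineralocorticoid receptor, which also binds cortisol (ENSBGRG00000011166, chromosome 16, 4589384 to 5070843, minus strand). It held 8 counts in Y-E replicate 1, 10 in Y-E replicate 5 and 0 in the other 16 libraries. *HSD11B1* encodes the enzyme that regenerates cortisol from cortisone inside cells (ENSBGRG00000023799, chromosome 14, 74393336 to 74466106, minus strand). It was at 0 in 14 libraries and held 4 counts in Y-E replicate 1, 2 in Y-E replicate 5, 3 in Y-E replicate 6 and 6 in Y-P replicate 4. Its interval overlaps *LAMB3* on the opposite strand, which held at most 49 counts in a library. Neither gene could be compared between stages at this depth, and no fold change is given for them.

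Among the response genes, none passed the test in Y-E vs. Y-A, *KLF9* was down-regulated and *DUSP1* up-regulated in both pregnancy comparisons, and *FKBP5*, *SGK1* and *ZBTB16* did not pass in any. The count of members that passed was 0 of 6 in Y-E vs. Y-A, 2 of 6 in Y-P vs. Y-A and 2 of 6 in Y-P vs. Y-E. Of all genes tested, 0.0207% passed in Y-E vs. Y-A, 5.83% in Y-P vs. Y-A (2.22% higher and 3.61% lower) and 14.4% in Y-P vs. Y-E (5.77% higher and 8.68% lower). In Y-E vs. Y-A no member reached an unadjusted p under 0.05 in edgeR, against 900 of all genes tested, and DESeq2 and limma also called 0. The pregnancy comparisons share the 6 Y-P libraries, so *KLF9* and *DUSP1* are not found independently in each. With the replicate number as a block, *KLF9* remained and *DUSP1* did not, which left 1 of 6 in each pregnancy comparison.

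**Figure D1:**
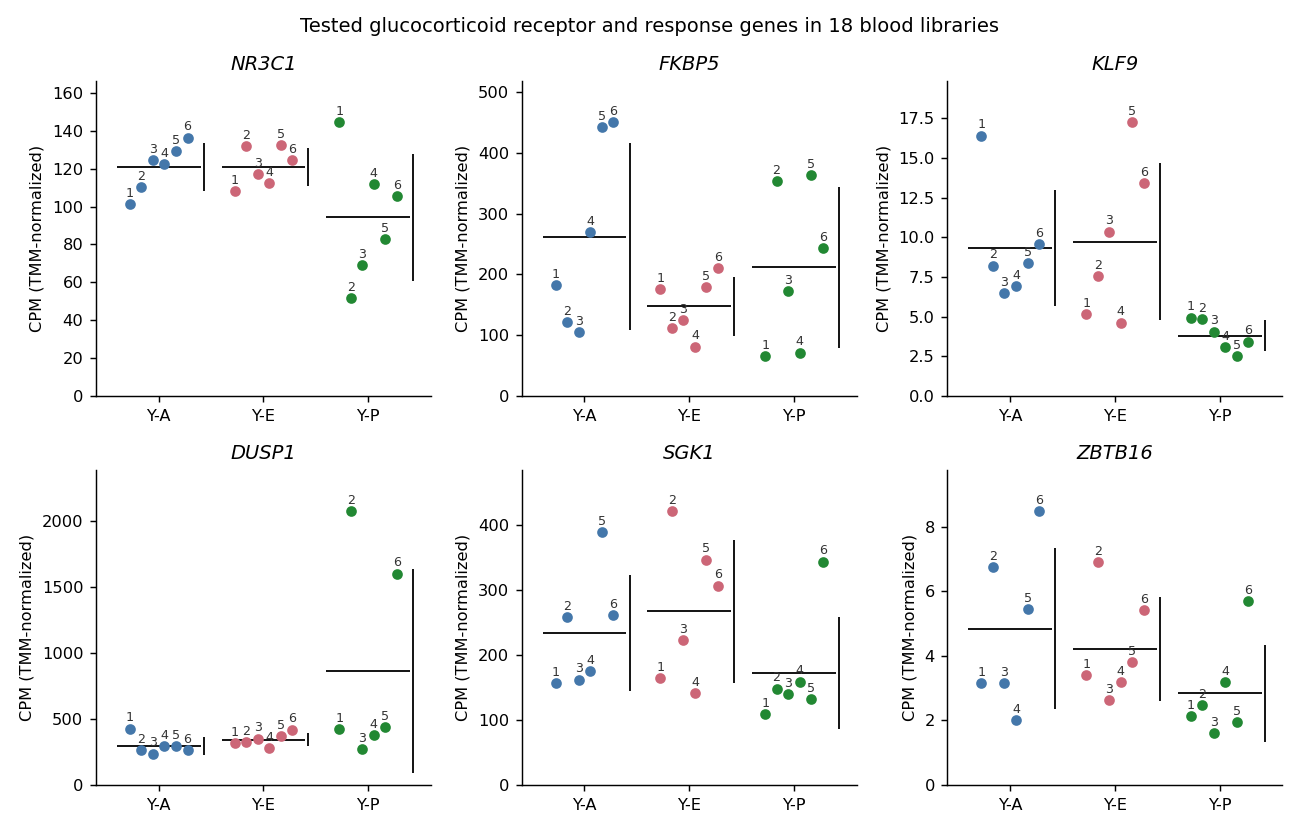
CPM after TMM normalization (linear axes from 0) of the 6 tested genes in the 18 libraries; points are libraries numbered by replicate, horizontal lines are stage means and vertical bars are ± 1 SD (n = 6). *KLF9* in Y-P stayed at 2.52 to 4.94 CPM, and Y-P replicates 2 and 6 held 2078 and 1603 CPM of *DUSP1* while the other 16 libraries held 238 to 440.

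**Figure D2:**
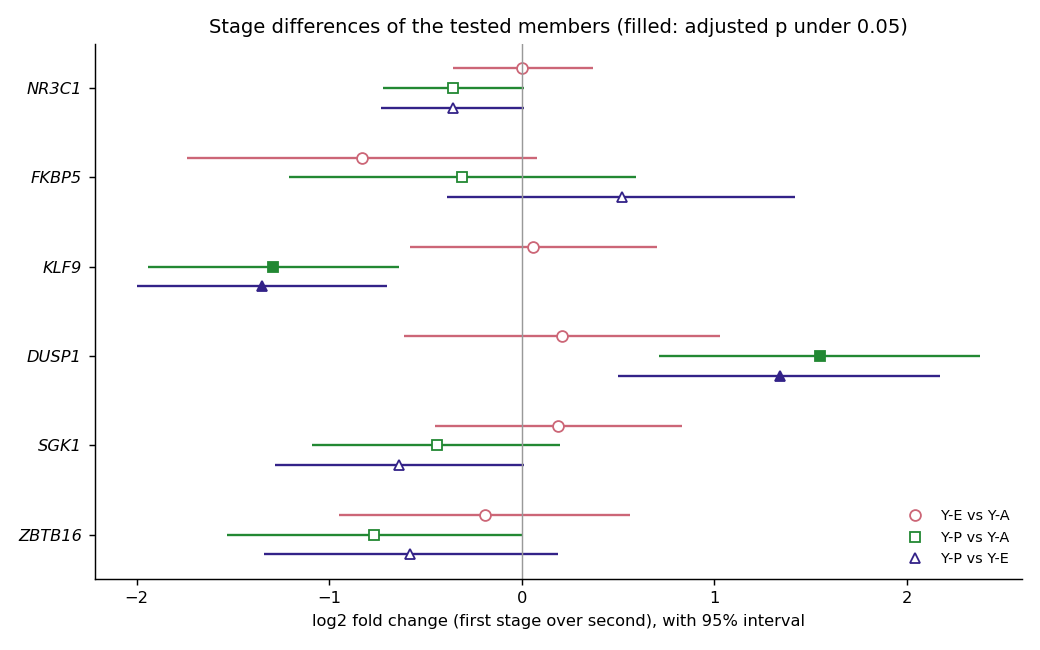
Log2 fold change of each tested gene in the 3 comparisons (x axis), with its 95% interval as a line; filled symbols mark an adjusted p under 0.05. The filled symbols are those of *KLF9*, at −1.29 and −1.35, and of *DUSP1*, at 1.55 and 1.34, both in the pregnancy comparisons.

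*KLF9* encodes a zinc-finger transcription factor of the Krüppel-like family that the bound receptor induces directly in many tissues (ENSBGRG00000000307, chromosome 7, 73250565 to 73280055, plus strand). In Y-P its level was 2.52 CPM at the lowest, 3.75 at the median and 4.94 at the highest. In Y-A the corresponding values were 6.46, 8.29 and 16.4, and in Y-E they were 4.63, 8.96 and 17.2. Every Y-P library thus lay below every Y-A library, whereas Y-E replicate 4 (4.63) fell among the Y-P values. The mean was 9.32 ± 3.64 CPM at anestrus, 9.72 ± 4.93 at estrus and 3.82 ± 0.976 in pregnancy, the last resting on 118 to 211 counts per library.

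*KLF9* was lower in Y-P than in Y-A by a log2 fold change of −1.29 (SE 0.31, 95% interval −1.94 to −0.64, adjusted p = 0.0237). Against Y-E it was lower by −1.35 (SE 0.31, interval −2.0 to −0.70, adjusted p = 0.0076). Both exceed the fold of 2 that the study asked of a differentially expressed gene, and 1.43% and 2.67% of all genes tested met the p and that fold in the respective comparisons. Between the non-pregnant stages the difference was 0.06 (−0.58 to 0.70). Leaving out Y-E replicate 6 gave −1.29 (adjusted p = 0.0231) against Y-A and −1.24 (adjusted p = 0.0168) against Y-E. The call in Y-P vs. Y-A was lost without Y-P replicate 4 (−1.23, adjusted p = 0.0512) or Y-P replicate 5 (−1.19, adjusted p = 0.0527), and that in Y-P vs. Y-E was kept without any single library. Within stages, *KLF9* varied with the summed level of the 4 monocyte markers in the table (r = 0.67, rho = 0.71 over the 18 libraries, which share their depth and scaling). These markers summed to 436 to 775 CPM in Y-A, 381 to 778 in Y-E and 348 to 598 in Y-P, and 0 of the 4 passed the test in edgeR in any comparison (0, 2 and 1 at an unadjusted p under 0.05). Their part in the *KLF9* difference was not tested.

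*DUSP1* encodes a phosphatase that switches off MAP kinases and is induced both by glucocorticoids and by growth factor or stress signals (ENSBGRG00000015028, chromosome 23, 2559079 to 2603097, plus strand). It ran from 238 to 426 CPM with a median of 278 in Y-A and from 281 to 419 with a median of 338 in Y-E. The Y-P libraries held 422, 2078, 273, 377, 440 and 1603 CPM in the order of replicates 1 to 6. Replicates 2 and 6 were therefore far above all other libraries, and the remaining 4 Y-P libraries lay between 273 and 440 CPM, which overlaps both other stages. The mean was 296 ± 66.9 CPM at anestrus, 343 ± 48 at estrus and 865 ± 772 in pregnancy.

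The log2 fold change of *DUSP1* was 1.55 in Y-P vs. Y-A (SE 0.40, 95% interval 0.71 to 2.38, adjusted p = 0.0307) and 1.34 in Y-P vs. Y-E (SE 0.40, interval 0.50 to 2.17, adjusted p = 0.0304). Without Y-P replicate 2 these fell to 1.07 (adjusted p = 0.0812) and 0.86 (adjusted p = 0.101), and without Y-P replicate 6 to 1.28 (adjusted p = 0.0591) and 1.07 (adjusted p = 0.0737). Without both, an alternative chosen after seeing the data, they were 0.35 (adjusted p = 0.251) and 0.14 (adjusted p = 0.645). With the replicate number as a block they were 1.21 (adjusted p = 0.0632) and 1.02 (adjusted p = 0.0768). In Y-P vs. Y-A the call was also lost without any one of Y-A replicates 2 to 6 (adjusted p 0.052 to 0.0604), and in Y-P vs. Y-E without any one of Y-E replicates 1 to 5 (adjusted p 0.0505 to 0.0622). In Y-E vs. Y-A the difference was 0.21 (−0.61 to 1.03).

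The 2 libraries with the most *DUSP1* were examined for immediate-early genes, which cells transcribe within minutes of a stimulus. Of the 8 such genes examined, 2 rose in Y-P vs. Y-A and 3 in Y-P vs. Y-E, and 0 passed in Y-E vs. Y-A by edgeR, DESeq2 or limma (1 at an unadjusted p under 0.05 in edgeR). Of all genes tested, 2.22% and 5.77% passed as higher in the pregnancy comparisons. *FOS*, which encodes a subunit of the AP-1 transcription factor, held 56.5, 1076, 88.5, 92.5, 293 and 448 CPM in Y-P replicates 1 to 6. It lay between 31.9 and 71.4 in Y-A and between 34.0 and 55.9 in Y-E, so that every Y-P library exceeded every Y-E library. The log2 fold change of *FOS* was 2.94 (adjusted p = 0.00673) against Y-A and 2.96 (adjusted p = 0.00211) against Y-E, and it still passed without Y-P replicates 2 and 6 together, at 1.57 (adjusted p = 0.0353) and 1.60 (adjusted p = 0.0114).

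*FOSB*, a relative of *FOS*, held 192 CPM in Y-P replicate 2 and 55.8 in replicate 6, against 12.9 to 18.4 in the other Y-P libraries. Its log2 fold change was 2.51 (adjusted p = 0.0172) against Y-A and 2.24 (adjusted p = 0.0126) against Y-E, which became 1.41 and 1.13 without Y-P replicate 2, both still passing, and 0.84 (adjusted p = 0.0946) and 0.56 (adjusted p = 0.176) without these 2 libraries. *EGR1*, a zinc-finger transcription factor, held 156 CPM in Y-P replicate 2 and 44.8 in replicate 6, and 5.11 to 21.8 in the others. It passed against Y-E (2.81, adjusted p = 0.0177) and not against Y-A (1.76, adjusted p = 0.151), and the first of these was lost without Y-P replicate 2 (1.66, adjusted p = 0.077). *JUNB*, the most abundant of the 8, differed by 0.18 in Y-P vs. Y-A (adjusted p = 0.726). Some of the list had values on the other side of 0: *NR4A1*, an orphan nuclear receptor, was at −0.84 (adjusted p = 0.106) against Y-A and −0.78 (adjusted p = 0.092) against Y-E, and *ATF3*, a stress-induced transcription factor, at −0.45 and −0.37 (adjusted p = 0.311 and 0.363). Both, named after their values were seen, passed as lower in Y-P vs. Y-E when Y-P replicates 2 and 6 were left out, at −1.14 (adjusted p = 0.0372) and −0.83 (adjusted p = 0.0312). The libraries high in *DUSP1* were thus also the highest in *FOS*, *FOSB* and *EGR1*, and the part of sample handling or of a stimulus before collection was not tested.

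**Figure D3:**
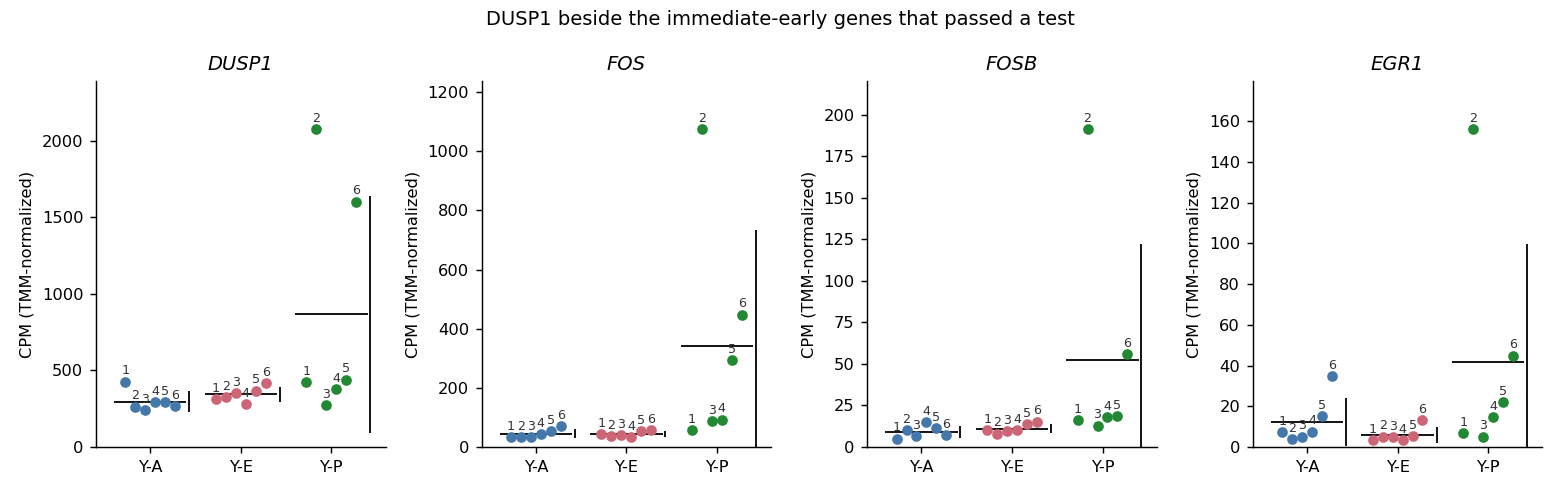
CPM after TMM normalization (linear axes from 0) of *DUSP1* and of the 3 immediate-early genes that passed a test, by stage; points are libraries numbered by replicate, horizontal lines are stage means and vertical bars are ± 1 SD (n = 6), drawn only above 0. Y-P replicates 2 and 6 are the highest libraries in all 4 panels, with 1076 and 448 CPM of *FOS*.

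*FKBP5* encodes a co-chaperone of the receptor complex that the receptor induces and that in turn lowers its affinity for the hormone (ENSBGRG00000014981, chromosome 24, 26766203 to 26892815, plus strand). By SD relative to mean CPM, *KLF9*, *SGK1* and *ZBTB16* varied more than *FKBP5* in Y-E, and *DUSP1* did in Y-P. On the log2 scale, pooled over the 3 stages, *FKBP5* was the most variable of the 6 genes within stages. Its level ran from 105 CPM in replicate 3 to 450 in replicate 6 of Y-A (median 226), from 81.5 in replicate 4 to 211 in replicate 6 of Y-E (median 151), and from 65.2 in replicate 1 to 363 in replicate 5 of Y-P (median 208). All 3 ranges overlapped. The means were 262 ± 154, 148 ± 48.8 and 212 ± 132 CPM, and without Y-E replicate 6 the Y-E mean was 135 ± 42.3.

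No comparison of *FKBP5* passed the test. The log2 fold change was −0.83 in Y-E vs. Y-A (SE 0.43, 95% interval −1.74 to 0.08, unadjusted p = 0.0717, adjusted p = 0.853), −0.31 in Y-P vs. Y-A (−1.21 to 0.59, adjusted p = 0.725) and 0.52 in Y-P vs. Y-E (−0.39 to 1.42, adjusted p = 0.466). These intervals leave room for changes of more than a fold of 2 in each comparison. The SD of its log2 level within stages was 0.87, larger than in 83.3% of the genes tested, whose median was 0.36.

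The other 5 tested genes varied within stages by an SD of 0.73 (*DUSP1*), 0.65 (*ZBTB16*), 0.57 (*SGK1*), 0.56 (*KLF9*) and 0.33 (*NR3C1*) on the log2 scale. Only *NR3C1* lay under the median of all genes tested. Replicate numbers were shared between stages, and the number accounted for 69.4% of the variation within stages in *ZBTB16*, 62.2% in *SGK1*, 49.0% in *FKBP5*, 32.7% in *DUSP1*, 23.4% in *NR3C1* and 22.3% in *KLF9*. The median over all genes tested was 43.4%, and *DUSP1*, *NR3C1* and *KLF9* lay under it. Fitting 6 numbers to 18 libraries takes up part of the variation even where same-numbered libraries are unrelated, and that part was not subtracted. The libraries numbered 5 and 6 were above the stage median of *FKBP5* in all 3 stages.

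*FOS* was also among the 5 genes whose level was most like that of *FKBP5*, judged by the Pearson correlation of log2 CPM deviations from the stage means over the 18 libraries (r = 0.78, rho = 0.89). The correlation had the same sign in each stage, with r = 0.92 at anestrus, 0.92 at estrus and 0.85 in pregnancy over 6 libraries each, and without Y-E replicate 6 it was 0.78 overall. In Y-A both genes were highest in replicates 5 and 6, in Y-E in replicates 5 and 6, and in Y-P in replicates 2, 5 and 6. The other 4 were ENSBGRG00000011058 (r = 0.83), ENSBGRG00000026431, which the table types as a pseudogene (0.76), *SLA2*, an adaptor that dampens antigen receptor signals (0.76), and *KMO*, an enzyme of tryptophan breakdown (0.76). Libraries share depth, scaling and cell composition in all such correlations, which are given as descriptions without a test. *FKBP5* also varied with the summed level of the 5 T cell markers (r = 0.51) and of the 4 reticulocyte markers (r = 0.56).

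**Figure D4:**
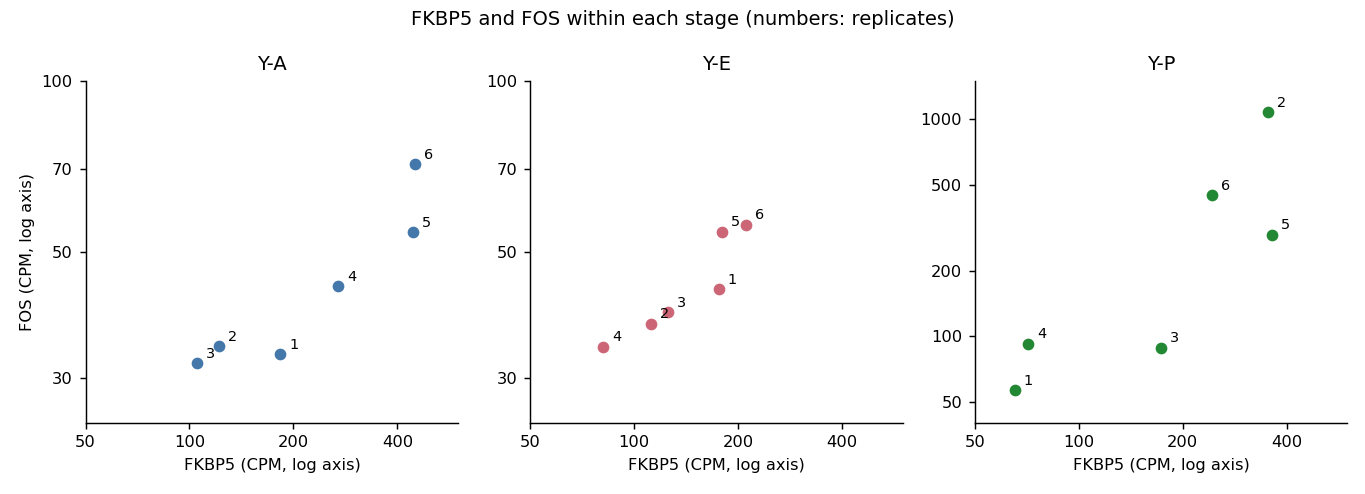
CPM of *FKBP5* (x axis, log scale) against CPM of *FOS* (y axis, log scale, with a higher range for Y-P) in the 6 libraries of each stage, numbered by replicate. Libraries with more *FKBP5* tended to hold more *FOS* in each stage, with rho = 0.94 at anestrus, 1 at estrus and 0.77 in pregnancy.

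The genes most like *NR3C1* by the same measure were *TNKS2*, a tankyrase (r = 0.95), *LNPEP*, the aminopeptidase that cleaves oxytocin (0.95), *BRWD3*, a bromodomain protein (0.94), *AFF4*, a scaffold of the super elongation complex (0.93), and *ITGAV*, the integrin alpha V chain (0.93). These correlations were closest in Y-P, where *NR3C1* spread most. By stage r was 0.96 to 0.99 in Y-P, 0.78 to 0.89 in Y-A and 0.50 (*LNPEP*) to 0.82 (*ITGAV*) in Y-E. *NR3C1* and *FKBP5*, the receptor and its co-chaperone, had no common direction across stages, with r = 0.58 among the Y-A libraries, 0.21 among Y-E and −0.75 among Y-P (6 each). *NR3C1* varied against the summed T cell markers (r = −0.63 over 18 libraries, not split by stage). Of those 5 markers, 2 rose in Y-P vs. Y-A and 3 in Y-P vs. Y-E, where 2.22% and 5.77% of all genes passed as higher.

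*SGK1* encodes a kinase that regulates ion channels and cell survival and is induced by glucocorticoids and mineralocorticoids (ENSBGRG00000018550, chromosome 10, 15969574 to 16095849, plus strand). It ran from 157 to 389 CPM with a median of 216 in Y-A, from 141 to 421 with a median of 264 in Y-E, and from 109 to 343 with a median of 144 in Y-P. Of the Y-P libraries, 5 lay between 109 and 159 CPM and replicate 6 alone stood at 343. The means were 233 ± 89.4, 267 ± 110 and 172 ± 85.5 CPM. The log2 fold change was 0.19 in Y-E vs. Y-A (adjusted p = 0.999), −0.44 in Y-P vs. Y-A (adjusted p = 0.42) and −0.64 in Y-P vs. Y-E (95% interval −1.28 to 0.01, adjusted p = 0.177). The last depended on Y-P replicate 6, without which it was −0.96 with an adjusted p of 0.0284.

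*ZBTB16* encodes the transcription factor PLZF, a sensitive target of the receptor in many cell types and a regulator of innate-like lymphocytes (ENSBGRG00000005665, chromosome 13, 63305837 to 63567100, minus strand). It was the lowest of the 6, from 2.02 to 8.50 CPM with a median of 4.31 in Y-A, from 2.63 to 6.90 with a median of 3.61 in Y-E, and from 1.60 to 5.69 with a median of 2.30 in Y-P. The ranges of the 3 stages overlapped. The means were 4.84 ± 2.49, 4.23 ± 1.61 and 2.84 ± 1.5 CPM, each library holding 60 to 242 counts. The log2 fold change was −0.19 in Y-E vs. Y-A (adjusted p = 0.999), −0.77 in Y-P vs. Y-A (adjusted p = 0.217) and −0.58 in Y-P vs. Y-E (adjusted p = 0.321).

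*ZBTB16* and *SGK1* varied together within stages more closely than any other of the 15 pairs of tested genes (r = 0.76, rho = 0.72 over 18 libraries). By stage r was 0.71 at anestrus, 0.74 at estrus and 0.89 in pregnancy. Replicate 6 held the most of both genes in Y-P, and replicate 2 the most of both in Y-E. Both varied against the summed level of the 5 B cell markers, with r = −0.76 for *ZBTB16* and −0.75 for *SGK1*. These markers summed to 437 to 1573 CPM in Y-A, 368 to 1283 in Y-E and 511 to 1762 in Y-P, and 0 of the 5 passed the test in edgeR in any comparison (1 at an unadjusted p under 0.05 in each pregnancy comparison).

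Compared per length, as FPKM averaged over the 18 libraries, the order of the levels was *DUSP1* (224 ± 232, SD), *FKBP5* (112 ± 65.3), *SGK1* (62.2 ± 26.2), *NR3C1* (40.1 ± 9.26), *KLF9* (8.58 ± 4.43) and *ZBTB16* (0.608 ± 0.297). The ranges of neighbours among the first 4 overlapped: 105 to 911 FPKM, 42.0 to 230, 35.9 to 110 and 18.6 to 60.7 in that order. These ranges hold all 3 stages, and the genes were not compared with each other within libraries. *KLF9* stood clearly below *NR3C1* on average, although its highest library (18.9 FPKM) reached the lowest of *NR3C1* (18.6), and *ZBTB16* lay below *KLF9* in every library. *DUSP1* exceeded 97.9% of the genes tested in mean FPKM, *NR3C1* 85.3% and *ZBTB16* 15.0%.

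The proteins that the receptor works with were examined as a list of 18 genes for chaperones, coregulators and steroid-handling enzymes, of which 12 were tested. Coregulator genes were down-regulated in pregnancy, and no chaperone gene passed. None of the 12 passed in Y-E vs. Y-A by edgeR (0 at an unadjusted p under 0.05), DESeq2 or limma, 5 passed in Y-P vs. Y-A and 6 in Y-P vs. Y-E, all of them lower. The share of all genes tested that passed as lower was 3.61% in Y-P vs. Y-A and 8.68% in Y-P vs. Y-E, and the median log2 fold change of the 12 was −0.33 and −0.34 beside 0.03 and 0.04 over all genes.

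*NCOA2*, a p160 coactivator that binds the hormone-bound receptor, had the smallest adjusted p of the list. It held 255 to 343 CPM in Y-A, 264 to 379 in Y-E and 115 to 184 in Y-P, so every Y-P library lay below every other library. Its log2 fold change was −1.04 (SE 0.13, adjusted p = 0.00074) against Y-A and −1.17 (SE 0.13, adjusted p = 0.000203) against Y-E. *EP300*, a histone acetyltransferase that coactivators recruit, was separated in the same way, at 558 to 716 CPM in Y-A, 576 to 817 in Y-E and 241 to 517 in Y-P. It was lower by −0.74 (adjusted p = 0.0146) and −0.90 (adjusted p = 0.00167).

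*CREBBP*, the close relative of *EP300*, was lower by −0.62 (adjusted p = 0.0466) and −0.83 (adjusted p = 0.00526). *NCOA3*, another p160 coactivator, was lower by −0.40 (adjusted p = 0.0222) and −0.42 (adjusted p = 0.007), and *NCOR1*, a corepressor, by −0.33 (adjusted p = 0.0455) and −0.43 (adjusted p = 0.00622). The chaperones *HSPA8* and *HSP90AB1*, the most abundant of the list at mean levels of 1560 and 704 CPM, differed by −0.09 (adjusted p = 0.751) and 0.23 (adjusted p = 0.343) in Y-P vs. Y-A. In Y-P vs. Y-E *HSP90AB1* differed by 0.41 (adjusted p = 0.0597) and passed as higher in 10 of the 29 alternatives, DESeq2 (adjusted p = 0.033) and limma (adjusted p = 0.0117 with a pseudocount of 1) among them.

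The calls of *NCOA2* and *EP300* held under each of the 29 alternatives in both pregnancy comparisons. In Y-P vs. Y-A, *NCOA3* passed without any single library, whereas *CREBBP* and *NCOR1* each passed in only 4 of the 18 fits that left out 1 library, with adjusted p up to 0.0994 and 0.0918, both without Y-P replicate 5. *CREBBP* passed only without Y-E replicate 1 or 6 or Y-P replicate 1 or 6, and *NCOR1* only without Y-A replicate 6, Y-E replicate 1 or 6 or Y-P replicate 1. In Y-P vs. Y-E these 5 genes passed in all 18. Scaling by library size alone left 2 of the 12 in Y-P vs. Y-A, and moved the median of all genes to 0.19 there and to 0.18 in Y-P vs. Y-E. Of the 7 neutrophil markers, 5 were lower in Y-P vs. Y-E and 0 were called in Y-P vs. Y-A (2 at an unadjusted p under 0.05 in edgeR). In Y-E vs. Y-A their median log2 fold change was 0.65 and 0 passed (3 at an unadjusted p under 0.05 in edgeR). The part of these markers in the coregulator differences was not tested.

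**Figure D5:**
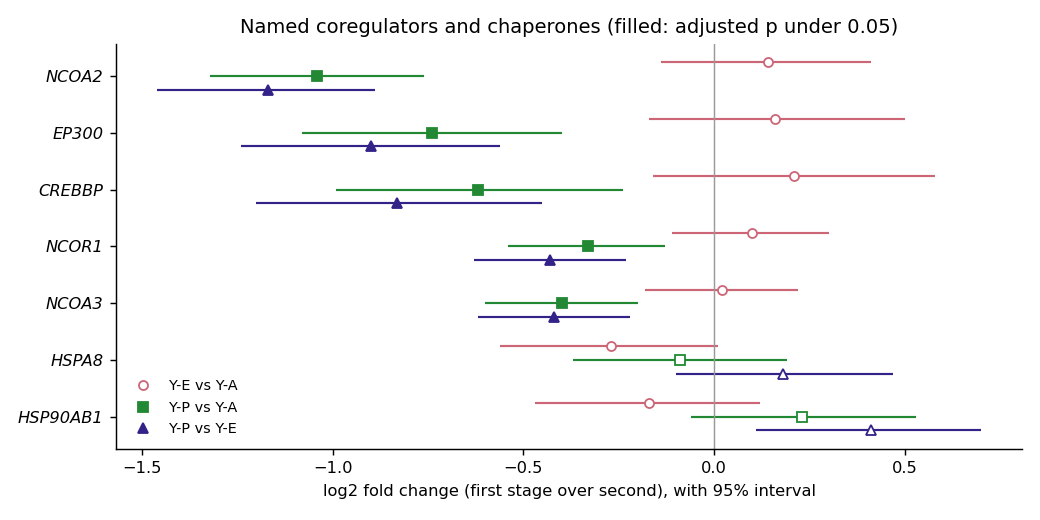
Log2 fold change (x axis) of the coregulator and chaperone genes described above in the 3 comparisons, with 95% intervals as lines; filled symbols mark an adjusted p under 0.05. The filled symbols are coregulators on the left of 0, from −1.17 (*NCOA2*, Y-P vs. Y-E) to −0.33 (*NCOR1*, Y-P vs. Y-A).

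A further 25 genes known to be induced by glucocorticoids in blood or other tissues were listed, and 20 of them were tested. In Y-E vs. Y-A 1 was lower, in Y-P vs. Y-A 2 and in Y-P vs. Y-E 2, and none was higher in any. As lower, 0.0207%, 3.61% and 8.68% of all genes tested passed, so the 2 of 20 in Y-P vs. Y-E lay near the share of all genes. The median log2 fold change of the 20 was 0.12, 0.03 and −0.12, beside −0.01, 0.03 and 0.04 over all genes. *PDK4*, which restrains glucose oxidation by phosphorylating pyruvate dehydrogenase, held 47.4 to 75.3 CPM in Y-A, 17.4 to 31.7 in Y-E and 18.6 to 41.6 in Y-P, with both later stages below every Y-A library. It was lower by −1.27 (SE 0.19, adjusted p = 0.00835) in Y-E vs. Y-A and by −0.86 (SE 0.19, adjusted p = 0.0143) in Y-P vs. Y-A. *BCL6*, a transcriptional repressor of lymphocytes and macrophages, held 251 to 473 CPM in Y-A, 313 to 662 in Y-E and 137 to 236 in Y-P. It was lower in Y-P by −0.78 against Y-A (adjusted p = 0.027, but 0.0622 when Y-A replicate 5 was left out, 0.062 when Y-P replicate 2 was and 0.0574 when Y-P replicate 4 was) and by −1.48 against Y-E (adjusted p = 0.000271). *ZFP36*, which encodes a protein that speeds the decay of cytokine mRNAs, was lower in Y-P vs. Y-E by −0.61 (adjusted p = 0.0268), a call that was lost without any one of Y-E replicates 2, 3 and 5 or Y-P replicates 1, 4 and 5 (adjusted p 0.0521 to 0.0719).

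With the replicate number as a block, 4 of the 20 passed in each pregnancy comparison, beside 8.84% of all genes in Y-P vs. Y-A and 18% in Y-P vs. Y-E, the latter close to the share of the list. *IL1R2*, a decoy receptor for interleukin 1, was then lower (−0.92, adjusted p = 0.0314, and −0.91, adjusted p = 0.0192). *IL7R*, the interleukin 7 receptor of T cells, was then higher (0.56, adjusted p = 0.0332, and 0.52, adjusted p = 0.0245).

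Of 14 genes known to be repressed by glucocorticoids, 8 were tested, and their median log2 fold change was 0.19 in Y-E vs. Y-A, 0.12 in Y-P vs. Y-A and −0.32 in Y-P vs. Y-E. None passed in Y-E vs. Y-A (0 at an unadjusted p under 0.05 in edgeR, and 0 by DESeq2 or limma), and the same 2, *IL1B* and *PTGS2*, were lower in both pregnancy comparisons, beside 3.61% and 8.68% of all genes that passed as lower. Over all genes the median was −0.01, 0.03 and 0.04. The medians of the 8 include genes close to the limit of detection, with mean levels of 0.183, 0.254 and 0.542 CPM. *IL1B*, which encodes interleukin 1 beta, held 175 to 476 CPM in Y-A, 182 to 382 in Y-E and 84.6 to 167 in Y-P. It was lower by −1.0 against Y-A (SE 0.24, adjusted p = 0.0208, or 0.0508 without Y-P replicate 2) and by −1.28 against Y-E (SE 0.24, adjusted p = 0.00199). *PTGS2*, the inducible cyclooxygenase that makes prostaglandin precursors, held 90.7 to 227 CPM in Y-A, 81.8 to 252 in Y-E and 37.9 to 97.0 in Y-P. It was lower by −1.25 (adjusted p = 0.0176) and −1.15 (adjusted p = 0.011). Beside these genes, the 7 neutrophil markers had a median log2 fold change of −0.53 in Y-P vs. Y-A and −1.45 in Y-P vs. Y-E, and their part in the differences of *IL1B*, *PTGS2*, *BCL6* and *ZFP36* was not tested.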

How the data were processed

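Whole blood of yaks (EDTA tubes, TRIzol LS) was sequenced in 18 paired-end libraries. The authors trimmed reads with Cutadapt 1.9, aligned them with HISAT2 2.2.1 and assembled and quantified transcripts with StringTie 2.1.6 (versions from the submitters' processing notes). They deposited whole-number counts, not normalized, and FPKM values, scaled to exon length and mapped reads. How the counts were made, and whether strand was used, was not given in the sources used here. Columns of the deposited table without a sample numbered 0.

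Counts were tested in R 4.3.3 with edgeR 4.0.16: filterByExpr, TMM, and a two-sided quasi-likelihood test with stage as the only term over all 18 libraries. P-values were adjusted by Benjamini-Hochberg over the 14508 genes of each comparison, and a gene passed at an adjusted p under 0.05. SE is the absolute log2 fold change over the square root of F. Log2 CPM used a prior count of 2. Figures were drawn with Python 3.11.15 and matplotlib 3.10.9. The scripts were tested on simulated data.

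Every member with a row was named. Of the receptor, induced, repressed and immediate-early lists, genes past the test were named, at most 4 per direction by smallest adjusted p, or the 2 most abundant where none passed, and the 5 genes most like *NR3C1* and *FKBP5*. *IL1R2*, *IL7R*, *NR4A1*, *ATF3* and *IFNG* were added after their values were seen, and 1 gene that is counted in its list is not reported here by name. The members and lists were chosen with earlier results of these data known.

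The study's methods say that the same 6 cows were tracked, although no label ties a replicate number to a cow. The main fit had stage as its only term and ignored this pairing. Only the replicate block took the number to mark a cow. Deviations from stage means correlated between same-numbered libraries at r of 0.11 to 0.515 (Y-E with Y-A), −0.0492 to 0.369 (Y-P with Y-A) and −0.0544 to 0.400 (Y-P with Y-E). Since libraries of different stages can come from the same cow, the unblocked p-values treat them as separate animals.

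Alternatives were a replicate block, DESeq2 1.42.0, DESeq2 size factors, library size scaling, removal of hemoglobin genes, no filter, fits of the 2 compared stages alone, limma 3.58.1 on log2(FPKM + 1) and log2(FPKM + 0.1), and leaving out each library. Fold changes on the FPKM scale understate changes of low genes.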

Additional observations from a re-analysis of the deposited data

Results flagged for a closer look

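In 60 groups of 6 libraries, Dixon's test on the log scale was used to look for a library far from the others. It found 4, and chance gives about 1 in 20 groups. Levels are printed below in CPM, and a library can stand apart in CPM without being found on the log scale. *SGK1* in Y-P replicate 6 was 343 CPM against 109 to 159 in the other Y-P libraries. *DUSP1* in Y-A replicate 1 was 426 CPM against 238 to 293. *IL1B* in Y-E replicate 6, the Y-E library with the highest hemoglobin share, was 182 CPM against 299 to 382. *EGR1* in the same library was 13.3 CPM against 3.26 to 5.41.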

How the results depend on the processing

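Each result was recomputed under 29 alternatives, 28 chosen with the tests and 1, leaving out Y-P replicates 2 and 6 together, after seeing the data. The count of members that passed was 0 in Y-E vs. Y-A under all of them. In Y-P vs. Y-A it was 2, and 1 with the replicate block, 1 with the block and Y-E replicate 6 left out, 1 with only the 2 stages compared, 0 without Y-P replicates 2 and 6, and 1 to 2 without single libraries. In Y-P vs. Y-E it was 2, and 1 in each of the first 3 of these alternatives, and 1 to 3 without single libraries. *KLF9* passed in 26 of 29 alternatives in Y-P vs. Y-A (−1.35, adjusted p = 0.0691 without Y-P replicates 2 and 6) and in 29 of 29 in Y-P vs. Y-E. *DUSP1* passed in 18 of 29 in each. *SGK1* passed in Y-P vs. Y-E without Y-P replicates 2 and 6 (−0.98, adjusted p = 0.049). For the 12 receptor partner genes the count in Y-P vs. Y-A was 5, and 2 with library size scaling, 3 without a filter, 3 with only the 2 stages, 2 by limma with either pseudocount, 2 without Y-P replicates 2 and 6, and 3 to 5 without single libraries. For the 20 other induced genes it was 1 in Y-E vs. Y-A (2 with the block and Y-E replicate 6 left out). In Y-P vs. Y-A it was 2, and 4 with the block, 4 with the block and Y-E replicate 6 left out, 1 without Y-P replicates 2 and 6, and 1 to 2 without single libraries. In Y-P vs. Y-E it was 2, and 4 with the block, 4 with the block and Y-E replicate 6 left out, 4 with library size scaling, 1 with only the 2 stages, 4 without Y-P replicates 2 and 6, and 1 to 3 without single libraries. The 2 repressed genes in Y-P vs. Y-A became 0 without Y-P replicates 2 and 6 and 1 to 2 without single libraries. In limma with a pseudocount of 1 they were joined by *IFNG*, higher by 0.62 (adjusted p = 0.0471). The mean level of *IFNG* was only 0.542 CPM. In Y-P vs. Y-E the receptor partner genes that passed numbered 4 to 7 over all alternatives, and the repressed genes 2 in each. The cause of these changes was not tested, and the fits that left libraries out also held fewer of them. The replicate block changed no other call among the 6 members. No called value changed direction. Library size scaling raised the share of higher calls over all genes from 38.1% to 80.6% in Y-P vs. Y-A and from 39.9% to 70.3% in Y-P vs. Y-E, and limma gave 89.3% and 78.2% with a pseudocount of 1. The genes called over all were 3, 846 and 2096 in the 3 comparisons, 14, 1282 and 2608 with the block, 43, 1464 and 2707 by DESeq2, and 3, 482 and 1747 with only the 2 stages. The few counts of *NR3C2* and *HSD11B1* limit what can be said of them.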
